A study of Mus musculus with 19 samples.

Results

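The genes described here are 10 antiviral genes that respond to type I interferon: Ifit1, Ifit3, Oasl2, Rsad2, Ifi44, Isg15, Usp18, Bst2, Xaf1 and Rtp4. They were taken by symbol from a table of 20408 genes measured by bulk RNA-Seq in the suprarenal abdominal aorta (SRA) of 19 male ApoE-deficient C57BL/6J mice, and all 10 had enough reads to be tested. The study asked how angiotensin II (Ang II), a vasoactive peptide that drives aneurysms in this model, changes the aorta within 24 h, and what part the kinase IKKβ of vascular smooth muscle cells (VSMCs) plays. IKKβ-/- mice (SMA-CreERT2 Ikkb Flox/Flox ApoE-/-) lack Ikbkb in cells that use the Acta2 promoter, and IKKβ+/+ mice (SMA-CreERT2 ApoE-/-) carry the same Cre, the same ApoE deficiency and the same tamoxifen treatment. Of the IKKβ+/+ mice 5 received Ang II and 5 saline, and of the IKKβ-/- mice 5 received Ang II and 4 saline. Treatment began with tamoxifen at 8 weeks of age on a regular chow diet, and Ang II or saline was then delivered by a subcutaneous osmotic pump for 24 h. The dose of Ang II for these libraries was 1000 ng/min/kg by the methods, and the labels give a range of 500 to 1000 ng/min/kg.

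The wall of the aorta was sequenced whole, so fewer cells of a type and less RNA per cell cannot be told apart. Reads assigned to genes numbered 11382573 to 19906694 in a mouse. The mouse numbers run in separate blocks by group, with no stated batch, so any batch and the groups cannot be told apart. Ikbkb was 23.8% lower in IKKβ-/- mice (533 ± 78.9 normalized counts, SD, n = 9) than in IKKβ+/+ mice (699.7 ± 66.8, SD, n = 10; two-sided exact permutation test, p = 0.000173), and the value was below that of every IKKβ+/+ mouse in 8 of 9 IKKβ-/- mice. The wall also holds cells in which Cre is not active, and which cells gave the remaining Ikbkb reads was not tested. VSMC markers were abundant in every group, with sums over 8 genes of 319538 to 659899 normalized counts. Mitochondrial transcripts took 5.99% to 38.7% of the reads.

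Type I interferons are secreted proteins that bind a receptor of IFNAR1 and IFNAR2 chains. The receptor sends a signal through STAT2 and IRF9 to the interferon-stimulated response element (ISRE) in promoters, and the induced proteins bind viral RNA, block viral replication, hold back budding virus or damp the receptor again. In many tissues a low level of these transcripts is present without infection. Interferon gamma acts through another receptor, through GAS elements and through IRF1, and shares many of the induced genes. IKKβ activates NF-κB, which takes part in the induction of the interferon beta gene.

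The promoters of members with ISRE letters are shown because these are the sequences through which the genes are known to respond. RefSeq promoter windows of 250 bases before and 50 bases after the transcription start were at hand for 8 of the 10 members (GRCm38.p6, not Rtp4 and Usp18). The ISRE was searched as GAAA repeated after 2 bases of any kind (NN), and its shorter IRF core as AANNGAAA, which lies within every ISRE match, on both strands. Each line gives 120 bases, 5′ to 3′ along the gene, from 170 to 51 bases before the start, with matches to either motif in capitals.
Ifit1 (chr19:34640719-34640838, plus strand): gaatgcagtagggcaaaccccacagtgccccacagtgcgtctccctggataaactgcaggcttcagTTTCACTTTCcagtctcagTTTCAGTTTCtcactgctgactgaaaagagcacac
Ifit3 (chr19:34583359-34583478, plus strand): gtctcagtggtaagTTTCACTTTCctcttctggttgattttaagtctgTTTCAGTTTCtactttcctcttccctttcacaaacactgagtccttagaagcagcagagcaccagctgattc
Isg15 (chr4:156200869-156200988, minus strand): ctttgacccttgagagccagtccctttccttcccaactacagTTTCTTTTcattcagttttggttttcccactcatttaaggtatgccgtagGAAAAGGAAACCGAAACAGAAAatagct
Bst2 (chr8:71537523-71537642, minus strand): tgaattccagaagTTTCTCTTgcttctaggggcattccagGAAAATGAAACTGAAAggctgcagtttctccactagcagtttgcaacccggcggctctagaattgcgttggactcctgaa
Rsad2 (chr12:26456503-26456622, minus strand): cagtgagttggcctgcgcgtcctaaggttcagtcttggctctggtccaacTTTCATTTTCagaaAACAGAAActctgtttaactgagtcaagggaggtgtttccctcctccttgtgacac

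ISRE letters were present in 5 of 8 members, and in 3.99% of all 27025 genes with a promoter window. In Isg15 they stood 3 times, in overlapping copies from 78 bases before the start. Bst2 held overlapping copies as well, from 130 bases before the start. Ifit1 and Ifit3 each carried a pair of separate copies, at 104 and 85 bases and at 156 and 122 bases before the start, and Rsad2 carried 1 at 120 bases. The shorter core was found in 7 of 8 members, all but Oasl2, and in 26.7% of these genes. Its copies in Ifi44 and Xaf1 lay nearer the start, within 55 bases. The GAS letters TTCNNNGAA were found in 1 of 8 members, Bst2, where they overlap the ISRE copies by part of their length, and in 9.55% of all genes with a window. The κB letters, GGGA and TTCC with 2 bases of any kind between them, were found in 0 of 8 members and in 1.63% of all genes with a window. These matches describe letters in a fixed window and not binding.

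**Figure D1:**
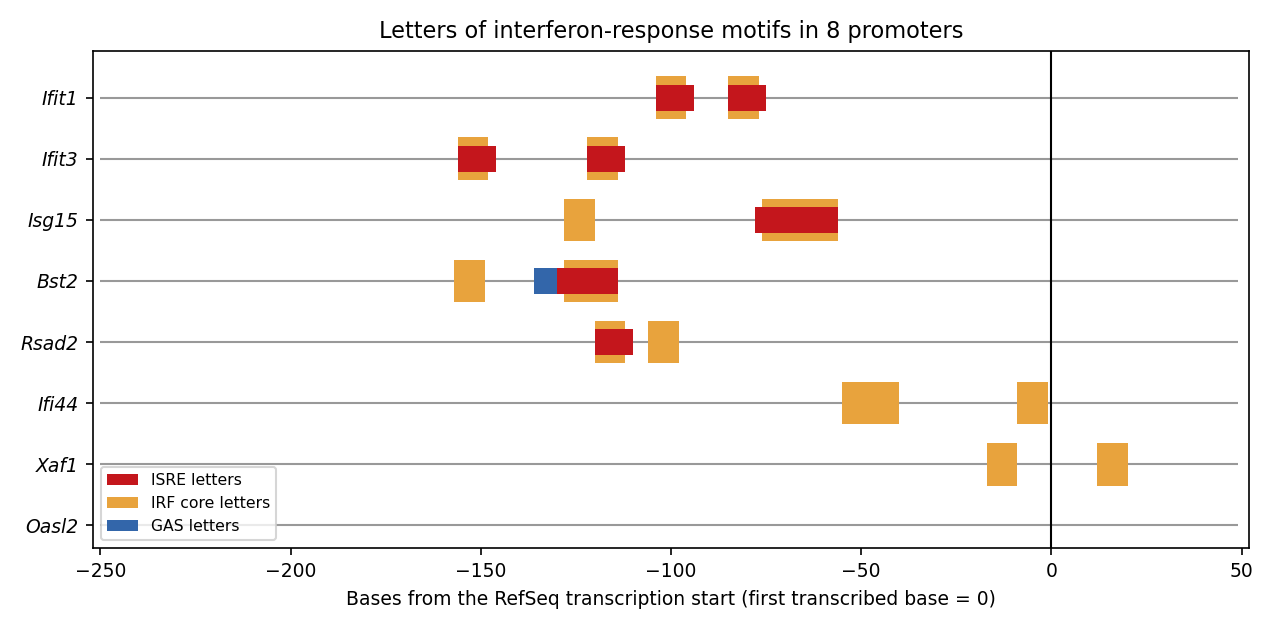
Positions of ISRE, IRF core and GAS letters in the promoter windows of 8 members, as bases from the RefSeq transcription start (horizontal axis, first transcribed base at 0), with 1 line per gene. ISRE letters stand in the upper 5 genes, and the Oasl2 window holds none of the 3 motifs.

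Levels of the members differed widely. Per kilobase of merged exons, the highest mean level in saline-infused IKKβ+/+ mice was that of Bst2, at 353 ± 58.6 normalized counts per kilobase (SD, n = 5). Ifit3 followed at 176 ± 88.8, Isg15 at 83.9 ± 33.1, Ifit1 at 73.4 ± 36.4, Rtp4 at 66.1 ± 10.5 and Oasl2 at 50.6 ± 7.82 on the same scale. Lower levels were those of Xaf1 (32.0 ± 6.21), Usp18 (22.6 ± 8.70), Rsad2 (21.1 ± 18.8) and Ifi44 (8.49 ± 2.12). In this order the ranges of mean ± SD did not overlap between Bst2 and Ifit3 and between Oasl2 and Xaf1, and all other neighbours overlapped.

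Levels of this gene group were lower with Ang II than with saline in IKKβ+/+ mice. Of the 10 members, 9 were lower in Ang II-treated than in saline-infused IKKβ+/+ mice when a call needed an adjusted p under 0.1 with a fold change above 1.2, and 0 were higher. Of all 14845 genes tested, 8.66% were called, 4.33% as lower and 4.33% as higher. The exception was Rsad2. All 10 log2 fold changes were below 0, as were 49.3% over all genes tested. Their median was -1.27, against 0.0056 over all genes, and 1.62% of all genes lay at or below the members' median. The members were chosen with earlier results of these data known, so these shares describe the group and do not test it. In 6 members (Ifit3, Isg15, Usp18, Ifi44, Bst2 and Rtp4) every Ang II-treated mouse lay below every saline-infused mouse, as in 4.47% of all genes. The calls depended on single mice: without Ang II-treated mouse X2350, or without X2358, only 2 members (Ifit3 and Isg15) stayed past the threshold, and without saline-infused mouse X2378, 4 did. All 10 log2 fold changes stayed below 0 in each of these fits, while calls over all genes fell from 1286 to 431, 451 and 627.

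Several features of the wall moved with Ang II in the same IKKβ+/+ mice. Mitochondrial transcripts took 10.1% to 14.1% of the reads with Ang II and 5.99% to 9.07% with saline, with no overlap. The summed VSMC markers ranged from 479309 to 659899 normalized counts with Ang II and from 348603 to 467619 with saline, and 2 of 8 markers (Cnn1 and Tagln, both of the contractile apparatus) rose. Endothelial markers summed to 12587 to 24625 with Ang II and to 22170 to 37334 with saline, and 1 of 9, Tek, fell. Of 12 macrophage markers 0 passed the test, with sums of 8688 to 12699 and 10500 to 13517 (edges rounded to whole counts). Of 7 fibroblast markers 1, Lum, fell. Log2 fold changes were below 0 in 10 of 12 macrophage, 7 of 7 fibroblast and 7 of 9 endothelial markers. They were above 0 in 7 of 8 VSMC markers. Over all genes, 49.3% were below 0, and 4.33% were called lower and 4.33% higher. Lymphocyte markers were near the limit of detection, with 4 of 13 tested and sums of 12.9 to 131 and 31.9 to 122. No marker of these lists was at 0 in every mouse of either group. The part of these differences in the fall of the members was not tested.

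The IFIT proteins bind viral RNA and form complexes with each other, and Ifit1 and Ifit3 are neighbours on chromosome 19 (ENSMUSG00000034459.8, chromosome 19, 34640871 to 34650009, plus strand, and ENSMUSG00000074896.3, chromosome 19, 34583531 to 34588731, plus strand, GRCm38). In the text below, values within a group are listed in the order of the mouse numbers. Ifit3 stood at 182, 214, 340.1, 236 and 563 normalized counts in saline-infused and at 50.3, 111, 151, 50.6 and 69.6 in Ang II-treated IKKβ+/+ mice. All 5 Ang II-treated mice were below the lowest saline-infused mouse, and the mean fell from 307 ± 155 to 86.6 ± 43.8 (SD, n = 5 each). On the log2 scale Ifit3 fell by 1.83 (SE 0.37, limma, adjusted p = 0.0108). Its IKKβ-/- values stood at 267, 229, 342 and 162 with saline and at 49.9, 91.3, 131, 172 and 163 with Ang II, where the groups overlapped through 2 Ang II-treated mice just above the lowest saline-infused mouse. The log2 difference there was -1.11 (95% interval -1.93 to -0.30, limma, adjusted p = 0.134), short of the threshold. Of the 84-base windows of Ifit3 transcripts, 37.5% also occur in its copy Ifit3b, so reads of this pair may be shared or lost in counting. Ifit3b itself fell by 1.69 in IKKβ+/+ mice (limma, adjusted p = 0.0604).

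Ifit1 was measured at 112, 133, 207, 166 and 355 normalized counts with saline and at 51.4, 68.3, 173, 49.7 and 33.8 with Ang II in IKKβ+/+ mice. Mouse X2356 stood apart from the other Ang II-treated mice and within the saline range. The fall was 1.48 on the log2 scale (SE 0.41, limma, adjusted p = 0.0452). IKKβ-/- values were 224, 126, 267 and 97.2 with saline and 68.4, 62.7, 115, 91.5 and 192 with Ang II. They overlapped, with a log2 difference of -0.75 (-1.66 to 0.15, limma, adjusted p = 0.380). For Ifit1, 4.51% of 84-base windows also occur in Ifit1bl2.

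Oasl2 (ENSMUSG00000029561.17, chromosome 5, 114896936 to 114912234, plus strand) belongs to the oligoadenylate synthetase-like proteins, which sense viral RNA or act beside its sensors. Its values in IKKβ+/+ mice were 252, 355, 345, 291 and 371 with saline and 131, 169, 386, 131 and 129 with Ang II. With Ang II, 4 mice lay close together below the saline range and X2356 lay above every saline-infused mouse. The log2 fall was 0.90 (SE 0.26, limma, adjusted p = 0.0542). IKKβ-/- mice had values of 267, 349, 297 and 204 and 143, 164, 311, 185 and 215, with a log2 difference of -0.48 (-1.06 to 0.10, limma, adjusted p = 0.381).

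Rsad2 (ENSMUSG00000020641.16, chromosome 12, 26442746 to 26456452, minus strand) encodes viperin, an enzyme that makes a nucleotide analog which stops viral RNA chains. It was the member whose mice varied most. IKKβ+/+ values were 51.9, 31.8, 74.9, 65.5 and 234 with saline and 18.2, 126, 58.1, 44.9 and 8.95 with Ang II, so both groups spanned low and high mice. The log2 difference was -0.99 (-2.29 to 0.30, limma, adjusted p = 0.386), an interval that includes 0 as well as the falls of the other members. Rsad2 in IKKβ-/- mice stood at 53.1, 33.7, 54.0 and 17.4 and at 106, 16.7, 69.7, 46.6 and 63.0, and its log2 difference of 0.51 (-0.87 to 1.88, limma, adjusted p = 0.749) was the only one of the 10 above 0.

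Ifi44 (ENSMUSG00000028037.13, chromosome 3, 151730922 to 151749960, minus strand) encodes a cytosolic protein named for its induction by interferon. It was the lowest member per kilobase, and 5 to 24 reads lay behind its values in Ang II-treated IKKβ+/+ mice. These values were 5.36, 14.9, 26.3, 10.5 and 16.9, below all 5 saline values of 31.9, 60.3, 45.8, 60.8 and 61.4. Ifi44 fell by 1.86 on the log2 scale (SE 0.49, limma, adjusted p = 0.0375), on the scale with a pseudocount of 1 that understates changes of low genes. IKKβ-/- mice had 44.4, 43.2, 72.1 and 21.04 with saline and 11.1, 4.76, 24.3, 49.8 and 23.1 with Ang II. The groups overlapped, and the log2 difference was -1.197 (-2.28 to -0.11, limma, adjusted p = 0.231).

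Isg15 and Usp18 act on the same chemistry. ISG15 is a ubiquitin-like protein that is joined to other proteins, and USP18 takes it off again and also binds IFNAR2, which damps the receptor. Isg15 (ENSMUSG00000035692.7, chromosome 4, 156199455 to 156200796, minus strand) stood at 43.9, 51.6, 79.3, 42.7 and 99.6 with saline and at 5.36, 26.7, 28.5, 15.3 and 16.9 with Ang II in IKKβ+/+ mice, with no overlap. Mouse X2350 was the lowest of all 19 mice, with 5 reads. The fall was 1.82 on the log2 scale (SE 0.37, limma, adjusted p = 0.0117). In IKKβ-/- mice the values were 48.3, 63.2, 75.7 and 35.6 and 37.9, 25.4, 54.9, 46.6 and 30.8, and the groups overlapped. The log2 difference was -0.49 (-1.32 to 0.33, limma, adjusted p = 0.562).

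Usp18 (ENSMUSG00000030107.10, chromosome 6, 121245906 to 121270917, plus strand) was at 45.9, 35.7, 66.1, 68.4 and 98.8 with saline and at 21.4, 29.9, 28.5, 21.02 and 24.8 with Ang II in IKKβ+/+ mice. The Ang II-treated mice were close together, and all lay below the saline range. Usp18 fell by 1.22 on the log2 scale (SE 0.34, limma, adjusted p = 0.0463). IKKβ-/- values were 29.9, 26.3, 61.3 and 35.6 with saline, of which 3 lay below the IKKβ+/+ saline range, and 14.8, 20.6, 43.3, 54.6 and 29.6 with Ang II. The log2 difference there was -0.30 (-1.04 to 0.45, limma, adjusted p = 0.728). Uba7, which activates ISG15 for joining, fell by 0.79 in IKKβ+/+ mice (limma, adjusted p = 0.0808). The carrier Ube2l6 had a log2 difference of -0.30 (adjusted p = 0.265) and the ligase Herc6 of -0.38 (adjusted p = 0.416), and neither passed; these 3 genes were chosen after their values were seen.

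Bst2 (ENSMUSG00000046718.8, chromosome 8, 71534255 to 71537456, minus strand) encodes tetherin, a membrane protein that holds budding virus particles to the cell. It is also a surface marker of plasmacytoid dendritic cells, of whose 6 other markers 2 had enough reads to be tested in IKKβ+/+ mice and 0 passed (Siglech -0.65, limma, adjusted p = 0.354, and Tcf4 -0.27, adjusted p = 0.407). Siglech was at -1.05 in IKKβ-/- mice (limma, adjusted p = 0.181) and fell by 0.85 averaged over genotypes (limma, adjusted p = 0.0628), where Tcf4 was at -0.28 (adjusted p = 0.190). Between genotypes averaged over treatments Tcf4 was 0.51 higher in IKKβ-/- mice (limma, adjusted p = 0.0438). Reads per mouse were 1235 to 3463 for Tcf4 and 23 to 137 for Siglech. Which cells of the wall gave the Tcf4 reads cannot be told. The part of plasmacytoid dendritic cells in the members' values was not tested. Bst2 values were 278, 406, 327, 282 and 298 with saline and 217, 270.0, 219, 169 and 179 with Ang II in IKKβ+/+ mice, without overlap, since the highest Ang II-treated mouse lay just below the lowest saline-infused mouse. Bst2 had the smallest fall of the 9, 0.60 on the log2 scale (SE 0.18, limma, adjusted p = 0.0571). The IKKβ-/- groups covered the same range, 263, 366, 331 and 219 with saline and 281, 213, 349, 329 and 219 with Ang II. The log2 difference was -0.09 (-0.47 to 0.30, limma, adjusted p = 0.861).

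Xaf1 (ENSMUSG00000040483.15, chromosome 11, 72301629 to 72313733, plus strand) encodes a partner of the apoptosis inhibitor XIAP. Its IKKβ+/+ values were 118, 164, 121, 165 and 183 with saline and 60.0, 85.4, 122, 74.5 and 61.6 with Ang II, where X2356 alone reached the saline range. The fall was 0.92 on the log2 scale (SE 0.24, limma, adjusted p = 0.0400). Xaf1 in IKKβ-/- mice was at 171, 221, 180.2 and 95.8 with saline and at 80.4, 98.4, 174, 116 and 112 with Ang II. The groups overlapped through X2409, the lowest saline-infused mouse, and X2384, the highest Ang II-treated mouse, and the log2 difference was -0.51 (-1.05 to 0.03, limma, adjusted p = 0.317).

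Rtp4 (ENSMUSG00000033355.6, chromosome 16, 23520291 to 23614222, plus strand) encodes a protein first known for carrying receptors to the cell surface. IKKβ+/+ values were 114, 159, 122, 165 and 144 with saline and 34.3, 74.7, 96.5, 42.04 and 49.7 with Ang II, with no overlap, and the log2 fall was 1.32 (SE 0.34, limma, adjusted p = 0.0348). Values in IKKβ-/- mice were 160.2, 172, 93.7 and 84.9 and 46.2, 49.2, 191, 78.7 and 91.3, and the Ang II-treated mouse X2384 was the highest of all 19. The log2 difference was -0.61 (-1.36 to 0.14, limma, adjusted p = 0.396). For Rtp4, 10.03% of 84-base windows also occur in the gene model Gm45338.

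**Figure D2:**
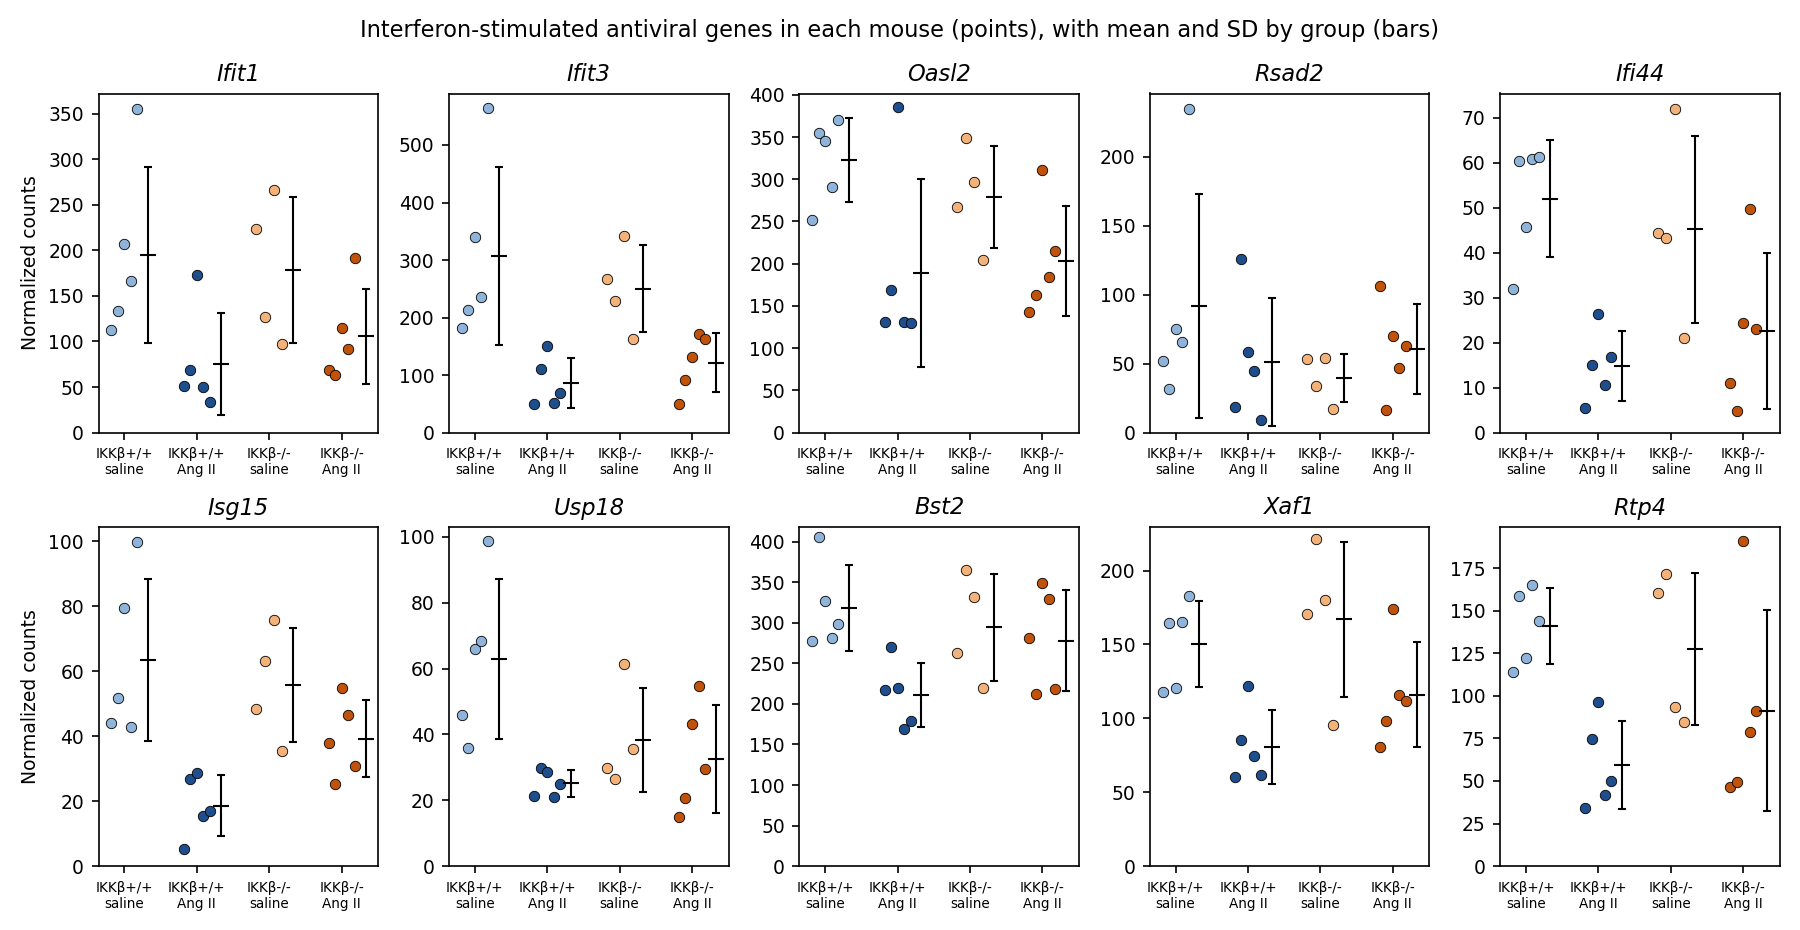
Normalized counts (vertical axes, each starting at 0) of the 10 members in each mouse, as points, by genotype and treatment, with the mean and SD of each group as bars. In IKKβ+/+ mice 6 members have no overlap between saline and Ang II, and in IKKβ-/- mice all 10 overlap.

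In IKKβ-/- mice 0 of 10 members were called, while 5.29% of all genes passed the test, 2.69% as lower and 2.59% as higher. The groups did not overlap in 0 members, against 2.88% of all genes that were lower without overlap. At an unadjusted p under 0.05, 2 members (Ifit3 and Ifi44) were lower, against 17.8% of all genes in either direction. Of the 10 log2 differences 9 were below 0 (50.4% of all genes), with a median of -0.50 against -0.0029 over all genes, and 10.4% of all genes lay at or below the members' median. DESeq2 on the recovered reads called 1 member, Ifit3 (adjusted p = 0.0895), and the edgeR quasi-likelihood test called 0. With limma, Ifit3 was also called when saline-infused mouse X2409 was left out. Adipocyte markers moved with Ang II in these mice: 5 of 6 tested markers rose, and their sums ranged from 2381 to 25347 with Ang II and from 1045 to 4307 with saline. Of 7 tested monocyte and neutrophil markers 1 rose (Plac8, by 1.66, limma, adjusted p = 0.0308). Of 9 endothelial markers 1 rose (Kdr, by 1.79, limma, adjusted p = 0.0990), while 7 of 9 were below 0, with a median of -0.25. Endothelial sums ranged from 8147 to 27292 with Ang II and from 14180 to 29881 with saline. Mitochondrial reads ranged from 7.88% to 37.2% and from 8.89% to 38.7%. The part of any of these in the members' values was not tested.

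**Figure D3:**
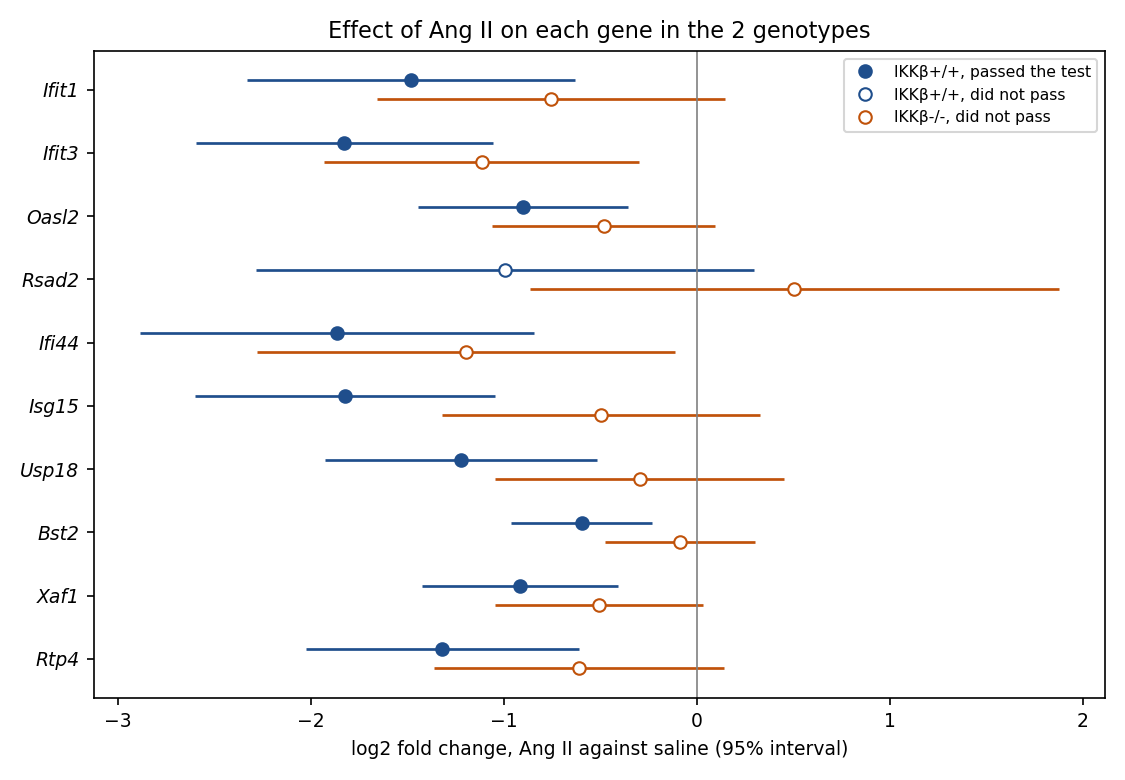
Log2 fold change of Ang II against saline (horizontal axis) with its 95% interval for each member in IKKβ+/+ and IKKβ-/- mice, filled where the gene passed the test. All 10 IKKβ+/+ estimates lie below 0, from -1.86 to -0.60, and the IKKβ-/- estimates lie nearer 0 or above it, with intervals that overlap those of IKKβ+/+ mice.

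A threshold passed in IKKβ+/+ and missed in IKKβ-/- mice does not show that the genotypes differed, so the difference between the effects was tested. It passed the threshold for 0 of 10 members and for 0 of all 14845 genes (limma), with 1654 genes (11.1%) at an unadjusted p under 0.05 and 3 genes called by edgeR and 279 by DESeq2, of which 0 were members. All 10 differences were above 0, that is, toward a smaller fall in IKKβ-/- mice (50.2% of all genes were below 0), with a median of 0.71 on the log2 scale against -0.0017 over all genes. This direction was not particular to the members. Differences were above 0 in 11 of 11 immunity-related GTPases (median 0.71), 8 of 8 guanylate-binding proteins (0.38) and 49 of 60 other interferon-stimulated genes (0.42). The same held for 11 of 12 macrophage and 7 of 7 fibroblast markers, and for 0 of 8 VSMC markers. Isg15 had an unadjusted p under 0.05, with a difference of 1.33 (0.19 to 2.46, limma, adjusted p = 0.382). Rsad2 had the highest estimate and the widest interval, 1.499 (-0.39 to 3.38). For Usp18 the difference was 0.93 (-0.10 to 1.95), for Bst2 0.51 (-0.02 to 1.05) and for Ifit3 0.71 (-0.41 to 1.84). The intervals of the 9 members other than Isg15 include 0, that is, an equal effect in both genotypes, and the intervals of 8 members in IKKβ-/- mice include no effect of Ang II.

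Averaged over the genotypes, 8 members were lower with Ang II and 0 higher, against 7.05% of all genes called lower and 5.66% called higher. Their median log2 fold change was -0.86, against 0.0056 over all genes. Ifit3 had the smallest p, with a fall of 1.47 (SE 0.27, limma, adjusted p = 0.00216). Bst2 missed the threshold at -0.34 (limma, adjusted p = 0.102), and it passed with TMM scaling and with DESeq2. Rsad2 was at -0.24 (limma, adjusted p = 0.785).

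Between the genotypes at the same treatment, no member passed. These comparisons share their mice with those of Ang II against saline and so do not stand apart from them. With saline 0 of 10 members were called, against 5.47% of all genes, and 0 were at an unadjusted p under 0.05 (1 by DESeq2), against 19.2% of all genes. The estimates lay between -0.97 for Rsad2 and 0.11 for Xaf1 (IKKβ-/- minus IKKβ+/+, log2). Usp18 came nearest to the threshold, at -0.70 (-1.45 to 0.05, limma, adjusted p = 0.294). With Ang II 0 of 10 were called, against 0.128% of all genes, and all 10 estimates were above 0 (50.9% of all genes were below 0), with a median of 0.50 against -0.0064 over all genes. Isg15 was 1.17 higher (0.39 to 1.95, limma, adjusted p = 0.212), and Bst2 and Xaf1 were also at an unadjusted p under 0.05, as were 14.3% of all genes. With Ang II-treated IKKβ+/+ mouse X2356 left out, Isg15 passed (limma, adjusted p = 0.0844). Averaged over treatments, the genotypes differed in 0 members, against 7.24% of all genes. Of 12 macrophage markers, 2 were called lower in IKKβ-/- mice with saline, 0 with Ang II and 3 averaged over treatments. The part of macrophages in the members' values was not tested.

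Mice of a group differed from each other in the members as a set. As a mean over members of the log2 value minus the gene's mean over all 19 mice, Ang II-treated IKKβ+/+ mice stood at -1.29 (X2350), -0.24 (X2352), 0.08 (X2356), -0.92 (X2358) and -1.05 (X2359). Saline-infused IKKβ+/+ mice ranged from 0.18 to 1.198, all above every Ang II-treated IKKβ+/+ mouse. X2378 was the highest of all 19 mice for 5 members, and X2356 was the highest of its group for 7. Ang II-treated IKKβ-/- mice stood at -0.56 (X2380), -0.85 (X2383), 0.35 (X2384), 0.14 (X2385) and 0.01 (X2386). Those with saline stood at 0.43, 0.42, 0.71 and -0.27, the last being X2409, which was the lowest of its group for 9 members. Within IKKβ-/- mice the treatments thus overlapped through X2409 on the saline side and X2384 and the mice near 0 on the Ang II side. In the order above, mitochondrial transcripts took 18.5%, 7.88%, 26.5%, 37.2% and 24.2% of the reads in the Ang II-treated IKKβ-/- mice. In the saline-infused IKKβ-/- mice they took 15.1%, 20.3%, 38.7% and 8.89%. In each of the 4 groups the mouse with the lowest share also had the lowest mean. In IKKβ+/+ mice saline went with lower shares and higher means than Ang II. The part of this share in the members' values was not tested.

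**Figure D4:**
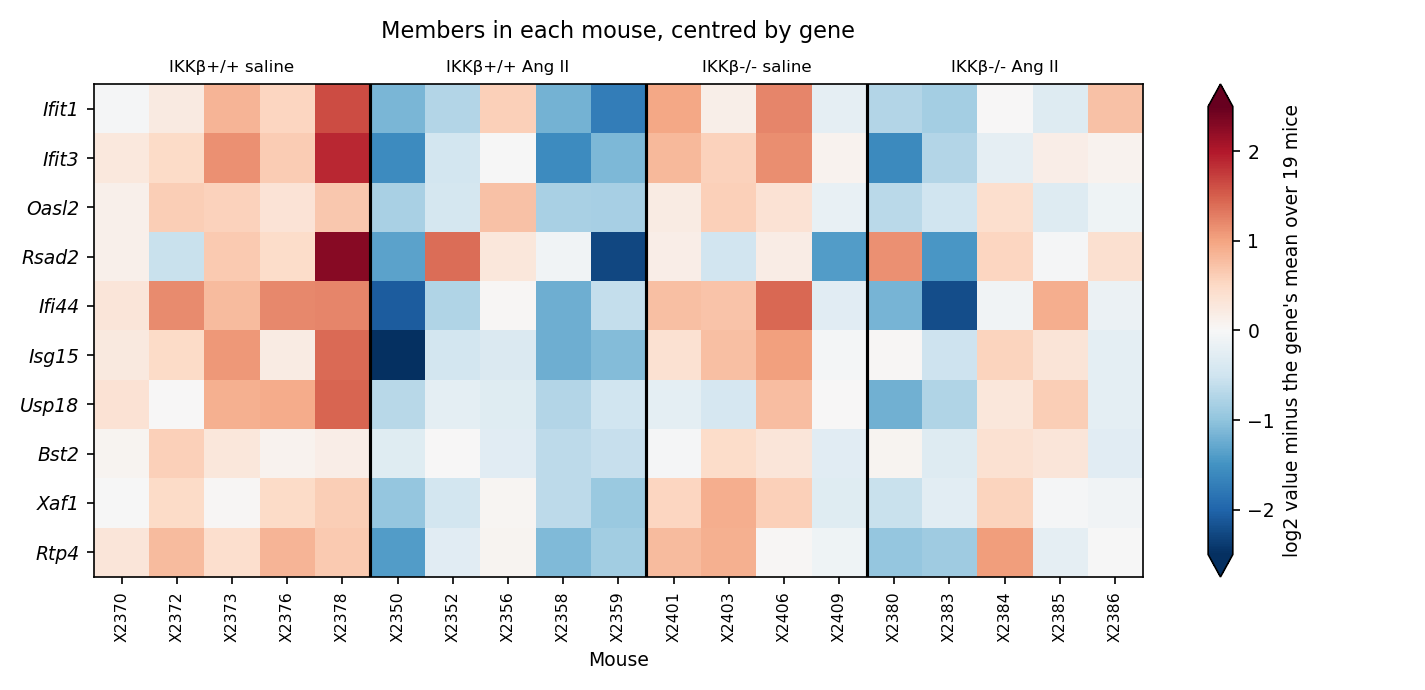
Log2 value minus the gene's mean over 19 mice (colour, red above and blue below the mean) for the 10 members (lines) in each mouse (columns), by group. Saline-infused IKKβ+/+ mice are mostly red and 3 of the Ang II-treated IKKβ+/+ mice (X2350, X2358 and X2359) are below the mean in all 10 genes, while X2352 and X2356 lie nearer the mean.

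The members rose and fell together across mice. Over the 45 pairs of members, Pearson's r across the 19 mice ranged from 0.395 (Rsad2 and Ifi44) to 0.906 (Xaf1 and Rtp4), with a median of 0.745. After the group means were taken out the median was 0.552 and the range 0.174 to 0.854, so pairs also varied together among mice of the same group. Ifit3 was most like the mean of the other 9 (r = 0.918) and Rsad2 least (r = 0.508). These values describe 19 mice whose libraries are shared by all genes, and no test was made.

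Of the 14835 genes that were tested and are no members, those most like the members' mean over 19 mice were Ifi203 (r = 0.929), Mndal (r = 0.929), Irf7 (r = 0.927), Gbp7 (r = 0.915), Cd2ap (r = 0.910), Lmo2 (r = 0.901), Iigp1 (r = 0.898), Irf1 (r = 0.893), Uba7 (r = 0.893) and Gm4951 (r = 0.891). Ifi203 and Mndal belong to a family of interferon-induced DNA-binding proteins. With the group means taken out, Mndal (0.902), Irf7 (0.867), Ifi203 (0.867), Gbp7 (0.845) and Ddx60 (0.844) were again near the top by r, together with Il15 (0.854), Cir1 (0.846), Zfp760 (0.844), Msrb2 (0.842) and Ucp2 (0.837). IL-15 is a cytokine that supports natural killer cells.

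Ligands, receptors and factors stand upstream of the members. The list of 21 interferon ligand genes was not analysed here, because the table used holds only genes above 0 in at least 4 mice and none of these symbols. Of 14 genes of receptors and their signalling, 1 fell with Ang II in IKKβ+/+ mice: Ifngr2, a chain of the interferon gamma receptor, by 0.38 (limma, adjusted p = 0.0420), and by 0.35 in IKKβ-/- mice (limma, adjusted p = 0.0855). Over all genes, 4.33% were called lower in IKKβ+/+ and 2.69% in IKKβ-/- mice. Ifnar1 ranged from 709 to 823 normalized counts with Ang II and from 759.8 to 881 with saline in IKKβ+/+ mice, with a log2 difference of -0.11 (limma, adjusted p = 0.487). With saline it was lower in IKKβ-/- than in IKKβ+/+ mice, by 0.34 on the log2 scale (limma, adjusted p = 0.0592). Ifnar2 had a log2 difference of -0.09 between Ang II and saline in IKKβ+/+ mice and of 0.01 in IKKβ-/- mice.

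Of the factor genes Stat2, Irf9, Irf7 and Irf1, the last 2 fell with Ang II in IKKβ+/+ mice. There the log2 difference was -0.26 for Stat2 (limma, adjusted p = 0.368) and -0.37 for Irf9 (adjusted p = 0.168), and neither passed. Irf9 passed when averaged over genotypes, with a fall of 0.29 (limma, adjusted p = 0.0991). Irf7, an interferon-induced factor that amplifies the response, stood at 91.2, 159.6, 178, 104 and 145 with saline and 22.5, 73.6, 85.6, 52.5 and 39.8 with Ang II in IKKβ+/+ mice. It fell by 1.39 (SE 0.37, limma, adjusted p = 0.0384), with no overlap, and missed the threshold without X2350 (adjusted p = 0.124). Irf1, a factor induced by interferon gamma and by NF-κB, stood at 465, 569, 444, 559 and 618 with saline and at 228, 305, 355, 179 and 237 with Ang II in IKKβ+/+ mice, and fell by 1.05 (SE 0.19, limma, adjusted p = 0.00663). In IKKβ-/- mice the log2 differences were -0.55 for Irf7 (limma, adjusted p = 0.506) and -0.11 for Irf1 (adjusted p = 0.835). Among 19 tested sensors and adaptors, 2 fell in IKKβ+/+ mice (Irf7 and the RNA sensor Ifih1) and 0 changed in IKKβ-/- mice. Over all genes, 4.33% were called lower in IKKβ+/+ mice and 5.29% were called in either direction in IKKβ-/- mice.

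Beyond the members, 60 other interferon-stimulated genes were tested. Of these, 21 fell and 0 rose with Ang II in IKKβ+/+ mice, and the list's median on the log2 scale was -0.48. Over all genes, 4.33% were called lower and 4.33% higher. The count of lower genes ranged from 4 (without X2350) to 26 (without X2356) when a mouse was left out, with 6 without X2358 or X2378, 9 without X2373 and 11 without X2376. The largest falls among those called were those of Ifit3b (-1.69), Irf7 (-1.39), Cmpk2 (-1.197), Sp100 (-1.11), Lgals3bp (-1.08) and Ddx60 (-1.03). CMPK2 is a mitochondrial nucleotide kinase encoded beside viperin, and SP100 is a component of nuclear bodies. The oligoadenylate synthetase genes of the list, chosen here after their values were seen, did not pass: Oas1a was at -0.61 (limma, adjusted p = 0.432), Oas2 at -0.36 (adjusted p = 0.675) and Oasl1 at -1.05 (adjusted p = 0.399). Among IKKβ-/- mice 0 of 60 were lower and 1 was higher, Samhd1, which degrades deoxynucleotides (0.33, limma, adjusted p = 0.0992). There 2.69% of all genes were called lower and 2.59% higher. Averaged over genotypes 22 were lower and 2 higher (Ifi27 and Samhd1), against 7.05% and 5.66% of all genes. The antiviral GTPase Mx1 was at -1.73 (limma, adjusted p = 0.0365) and Mx2 at -1.12 (adjusted p = 0.0376). Between genotypes with saline, 2 of 60 were called, against 5.47% of all genes. These were Lgals3bp (-0.84) and Rnf213 (-0.69), both lower in IKKβ-/- mice. ISRE letters stood in the promoter windows of 21 of 47 genes of this list, against 3.99% of all genes with a window.

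Guanylate-binding proteins (GBPs) and immunity-related GTPases (IRGs) are families of large GTPases that attack the membranes around microbes and respond most to interferon gamma. All 8 tested GBPs were lower with Ang II in IKKβ+/+ mice and 4 of 8 in IKKβ-/- mice. The background of lower calls was 4.33% in IKKβ+/+ and 2.69% in IKKβ-/- mice. Gbp4 stood at 178, 551, 204, 393 and 299.7 with saline and 48.2, 76.8, 105, 39.2 and 40.8 with Ang II in IKKβ+/+ mice, and at 533, 342, 175 and 201 and 55.4, 19.8, 89.8, 136 and 96.4 in IKKβ-/- mice. Neither pair of groups overlapped, and the falls were 2.36 (limma, adjusted p = 0.00721) and 2.07 (adjusted p = 0.0222). Gbp5 fell by 1.86 (adjusted p = 0.0115) and by 1.69 (adjusted p = 0.0279), Gbp8 by 2.44 in IKKβ+/+ mice (adjusted p = 0.0573) and Gbp9 by 1.11 in IKKβ-/- mice (adjusted p = 0.0881). Of 11 tested IRGs, 8 were lower in IKKβ+/+ mice and 2 in IKKβ-/- mice. Tgtp2 fell by 1.88 (limma, adjusted p = 0.0115) and by 1.62 (adjusted p = 0.0344), and Iigp1 by 1.83 (adjusted p = 0.00601) and by 1.12 (adjusted p = 0.0953). F830016B08Rik fell by 1.85 in IKKβ+/+ mice (adjusted p = 0.0574). With a mouse left out, the GBPs called ranged from 5 (without X2358) to 8 in IKKβ+/+ and from 1 (without X2401, and 2 without X2403) to 4 in IKKβ-/- mice. The IRGs called ranged from 4 (without X2350, and 5 without X2358, X2372, X2376 or X2378) to 8 in IKKβ+/+ mice, and in IKKβ-/- mice from 0 (without X2401 or X2406) to 3 (without X2384), with 1 without each of 11 other mice. GBPs and IRGs included genes called in both genotypes and the 10 antiviral members did not, but whether these lists differ in their response was not tested. The median log2 fold changes in IKKβ-/- mice were -1.11 for GBPs, -0.65 for IRGs and -0.50 for the members. ISRE letters stood in the promoter windows of 5 of 5 GBP and 6 of 8 IRG genes, and GAS letters in 2 and 4 of them. Of all genes with a window, 3.99% held ISRE and 9.55% GAS letters.

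**Figure D5:**
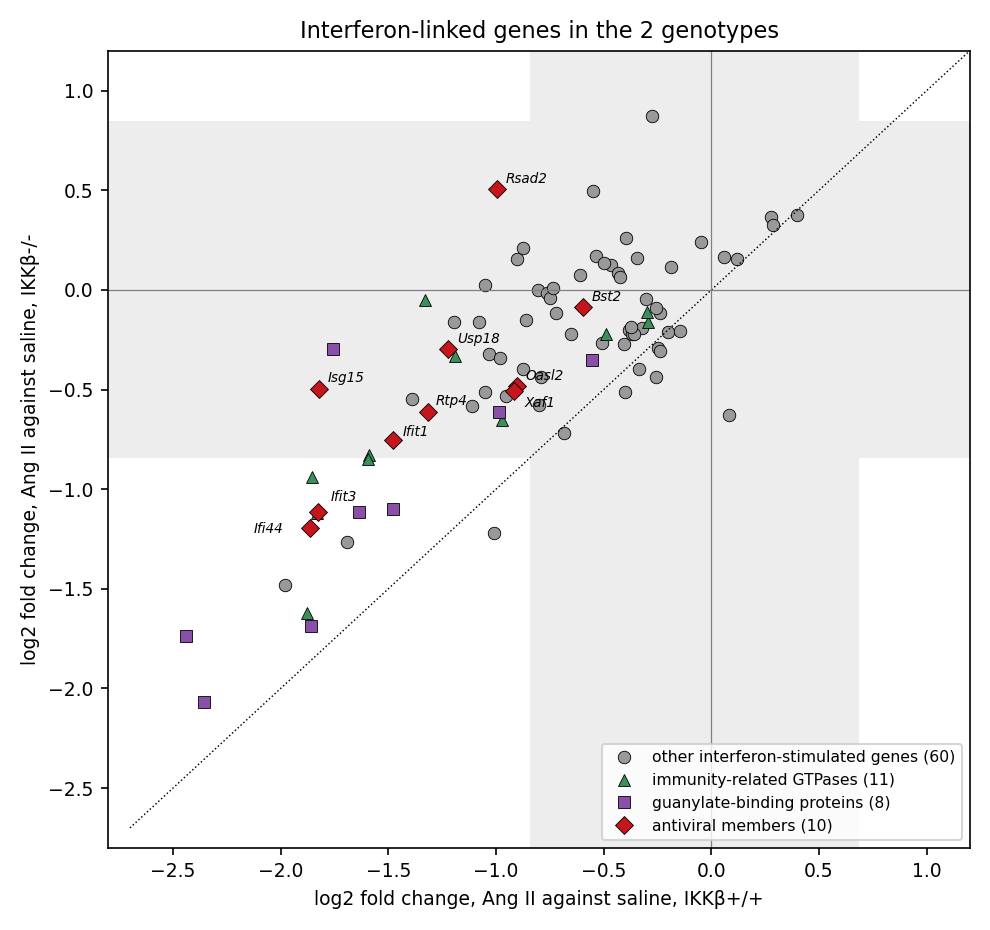
Log2 fold change of Ang II against saline in IKKβ+/+ mice (horizontal axis) and in IKKβ-/- mice (vertical axis) for the 10 members, 60 other interferon-stimulated genes, 8 GBPs and 11 IRGs, which share no mice between the axes. Grey bands hold the middle 90% of all genes tested and the dotted line marks equal effects; the members lie above the line, with Ifit3 and Ifi44 below the band in both genotypes.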

How the data were processed

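RNA of the SRA of 19 mice was sequenced by the authors as single reads from stranded poly(A) libraries. The submitters' processing notes name Trimmomatic 0.35, STAR 2.7.1a, RSEM, DESeq2 1.30.1 and GRCm38. The deposited signal values are counts per gene divided by a size factor of each mouse. All values (100%) were whole multiples of the value of 1 read in their mouse within a tolerance of 0.01, so the reads were recovered. Groups came from the labels. Between mice of a group the chi-square of the read counts per gene was at least 19.5 (36 pairs), so within groups no library was a copy of another. Pairs between groups were not compared.

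A gene was kept where 4 mice or more reached 10 normalized counts (14845 tested, 5563 left out). Values were analysed as log2(value + 1), which understates the change of genes with few reads, with limma 3.58.1 in R 4.3.3 (lmFit, eBayes with a trend, a mean for each of 4 groups). Tests were two-sided, Benjamini-Hochberg adjustment ran over all genes tested, and a call needed an adjusted p under 0.1 together with a fold above 1.2. The p-values set each difference against the spread between mice, estimated over all 4 groups together. Depth of 11382573 to 19906694 reads per mouse limits the members with few reads. Levels per kilobase divide by merged exon bases of GENCODE M21. Alternatives were other thresholds, a pseudocount of 4, no filter, array weights, TMM scaling, edgeR 4.0.16 and DESeq2 1.42.0 on the recovered reads, a fit of the compared groups alone and each mouse left out. The fits were tested on simulated data for Ang II against saline in IKKβ+/+ mice. Of 200 changed genes limma recovered 175, edgeR 176 and DESeq2 177. Unchanged genes were called as well, 17 by limma, 12 by edgeR and 46 by DESeq2. Leaving a mouse out for the lists other than the members was added after seeing the data.

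The 10 members and the gene lists were chosen with earlier results of these data known. The genes named are the members, Ikbkb, interferon ligands, the receptor and factor genes Ifnar1, Ifnar2, Stat2, Irf9, Irf7 and Irf1, in each comparison the called genes with the largest change of the other lists (at most 6 other interferon-stimulated genes, 3 GBPs and 3 IRGs) and the 10 genes most like the members' mean over 19 mice, with and without the group means. Cell type markers and genes said to be chosen later are exceptions, and 1 gene of the rule is not reported here.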

Additional observations from a re-analysis of the deposited data

Results flagged for a closer look

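In 3 of 40 combinations of a member and a group, 1 mouse stood far from the others of its group by Dixon's gap test. That is not far from the 1 in 20 that chance gives for values without skew. The normalized counts were not logged for it, and the members vary together, so the 40 are not independent. Ifit1 in Ang II-treated IKKβ+/+ mice was 173 normalized counts in X2356 and at most 68.3 in the other 4. Oasl2 in the same mouse was 386, against at most 169 in the others. Rsad2 in saline-infused IKKβ+/+ mice was 234 in X2378, against at most 74.9 in the others.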

How the results depend on the processing

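The count of members lower with Ang II in IKKβ+/+ mice was 9, with 7 at an adjusted p under 0.05, 8 by edgeR (Oasl2 lost, adjusted p = 0.107) and 9 under each of the other alternatives that kept all mice. With a mouse left out it ranged from 2 to 9. In IKKβ-/- mice the count was 0, 1 by DESeq2 on the recovered reads, and 0 to 1 with a mouse left out. Averaged over genotypes it was 8 and ranged from 7 to 9 under all alternatives. With Ang II between genotypes it was 0, and 0 to 1 with a mouse left out. For the difference between genotypes, the genotypes with saline and the genotypes averaged it was 0 under every alternative. The cause of these changes was not tested.

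Changes of direction were confined to members that were not called. With array weights Bst2 in IKKβ-/- mice was 0.0022, Ifit1 between genotypes with saline 0.085 and Oasl2 between genotypes averaged 0.021. With a mouse left out, Bst2 in IKKβ-/- mice ranged from -0.22 to 0.028. Between genotypes with saline the ranges were -0.35 to 0.13 for Ifit1, -0.39 to 0.028 for Ifit3, -0.32 to 0.035 for Isg15, -0.043 to 0.36 for Xaf1, -0.24 to 0.0079 for Bst2 and -0.54 to 0.032 for Ifi44. Between genotypes averaged over treatments they were -0.46 to 0.00093 for Rsad2, -0.093 to 0.14 for Oasl2 and -0.13 to 0.26 for Ifi44.

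Calls over all genes also changed. With Ang II in IKKβ+/+ mice 1286 became 638 at an adjusted p under 0.05, 752 at a fold above 1.5 and 2074 with array weights (1373 by edgeR, 1887 by DESeq2). In IKKβ-/- mice 785 became 412 at an adjusted p under 0.05 and 295 with the compared groups alone (722 by edgeR, 1164 by DESeq2). Between genotypes with saline 812 became 136, 504, 1902 and 1437 (adjusted p under 0.05, fold above 1.5, array weights, DESeq2) and 1420 with the compared groups alone, and with Ang II 19 became 0, 14, 15 and 521, and 1. The difference between genotypes gave 0, and 76 with array weights, 3 by edgeR and 279 by DESeq2. Averaged over genotypes 1887 became 1271 at an adjusted p under 0.05 and 909 at a fold above 1.5, and averaged over treatments 1075 became 353 and 408. No scaling moved the median of all genes by over 0.1. No paired analysis was possible because the labels give each mouse its own number and no number is shared between groups. Members with few reads, such as Ifi44 and Isg15, are limited most by depth.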
